A study of Rattus norvegicus with 7 samples.

Results

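The genes described here are 10 members of insulin-like growth factor (IGF) and insulin signalling: the ligand gene Igf1, the receptor genes Ghr, Igf1r and Insr, the adaptor genes Irs1 and Irs2, and the binding protein genes Igfbp3, Igfbp4, Igfbp5 and Igfbp7. They were chosen by symbol, and each of the 10 symbols matched 1 of the 25399 genes in the deposited feature tables. The libraries are single-nucleus RNA-seq of archived kidneys from 4-week-old rats of the HSRA line, in which some animals are born with 1 kidney. By their titles, 3 libraries come from animals with 1 kidney and 4 from animals with 2, and the design text counts 3 HSRA-S and 4 HSRA-C without saying which name goes with which kidney number. The nuclei came from a central piece of kidney with both cortex and medulla, so the 1-kidney and 2-kidney animals share line, age and tissue, and no treatment is named for either. The labels give no sex and no share of cortex in each piece. Each title carries a number of its own, so 1 library was taken as 1 animal, and the p-values measure the spread between these libraries.

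In this pathway, growth hormone binds its receptor GHR, which acts through JAK2 and STAT5, and in liver and other tissues this raises transcription of Igf1. IGF1 binds the receptor tyrosine kinase IGF1R, and insulin binds the related INSR. Both receptors phosphorylate the adaptors IRS1 and IRS2, which recruit PI3 kinase and so lead to AKT, mTOR and the exclusion of FoxO factors from the nucleus. IGF binding proteins hold IGF1 outside the cell and release it when proteases such as PAPP-A2 cut them. In the kidney, IGF1 is known to take part in growth of the nephron and in growth of the kidney that remains after loss of the other.

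The labels state 5293 cells per sample, and the files held 5293 barcodes per library on average, of which 4455 were kept. The 7 libraries held 2257 to 5942 retained nuclei and 5566753 to 27081936 UMIs (unique molecular identifiers, 1 for each captured RNA molecule), with 1436 to 2513 UMIs in the median nucleus. The 31186 nuclei formed 24 clusters, and 4 of these, with 18.0% of the nuclei and 44.2% of the UMIs, stay unnamed by the rules given further on. The largest of them had 9117 UMIs in its median nucleus. Its median doublet score, a score for 2 nuclei under 1 barcode, was the highest of all clusters (0.0906). Nuclei of the unnamed clusters enter the results over all nuclei. The 20 named clusters form classes that are like a cell type by their markers and are called by its name for short. Between 18 and 50 barcodes of a library also occurred in another library. The members and the list genes were left out of the clustering, so their levels had no part in the classes. Names of 2-kidney replicates 3 and 4 begin with P1117B and those of the other 5 with P1117, a code whose meaning is not given, and no 1-kidney library is in P1117B. Levels are CPM, the UMIs of a gene per 1000000 UMIs of all genes in the same library and class. No level is compared between genes.

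Over all nuclei the files held 213295 UMIs of Igf1r (ENSRNOG00000014187), 142957 of Ghr (ENSRNOG00000015654), 93510 of Igfbp7 (ENSRNOG00000002050), 30033 of Insr (ENSRNOG00000029986), 21105 of Igfbp5 (ENSRNOG00000017206), 12023 of Irs2 (ENSRNOG00000023509), 7081 of Irs1 (ENSRNOG00000014597), 6967 of Igfbp4 (ENSRNOG00000010635), 2245 of Igf1 (ENSRNOG00000004517) and 1908 of Igfbp3 (ENSRNOG00000061910). These totals set the precision, and Igf1 and Igfbp3 have the fewest molecules behind each value.

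The promoters of Igf1 and of the 3 members that differed between 1-kidney and 2-kidney fibroblasts (Irs1, Igfbp3 and Igfbp7, described further on) are shown because those results turn on these genes. The 250 bases before each start site are from RefSeq, build GRCr8, 5′ to 3′ on the strand of the gene, with the GC box letters GGGCGG on either strand in capitals. Each is given with its place in the genome.
Igf1, chr7:24172282-24172531, plus strand: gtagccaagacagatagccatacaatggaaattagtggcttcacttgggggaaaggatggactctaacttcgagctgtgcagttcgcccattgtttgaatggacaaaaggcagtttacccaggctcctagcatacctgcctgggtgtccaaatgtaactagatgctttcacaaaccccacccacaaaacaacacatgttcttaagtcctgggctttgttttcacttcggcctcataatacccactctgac
Irs1, chr9:91053960-91054209, minus strand: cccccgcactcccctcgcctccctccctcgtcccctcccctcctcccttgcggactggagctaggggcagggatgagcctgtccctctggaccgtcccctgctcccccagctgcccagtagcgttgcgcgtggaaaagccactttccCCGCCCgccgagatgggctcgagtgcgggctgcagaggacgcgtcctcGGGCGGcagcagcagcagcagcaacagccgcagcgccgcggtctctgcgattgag
Igfbp3, chr14:86277945-86278194, minus strand: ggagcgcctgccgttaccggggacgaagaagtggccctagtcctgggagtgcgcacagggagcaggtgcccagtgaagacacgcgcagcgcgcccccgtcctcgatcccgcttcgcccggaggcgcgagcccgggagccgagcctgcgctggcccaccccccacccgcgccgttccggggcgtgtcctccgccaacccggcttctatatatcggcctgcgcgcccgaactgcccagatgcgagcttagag
Igfbp7, chr14:31091486-31091735, plus strand: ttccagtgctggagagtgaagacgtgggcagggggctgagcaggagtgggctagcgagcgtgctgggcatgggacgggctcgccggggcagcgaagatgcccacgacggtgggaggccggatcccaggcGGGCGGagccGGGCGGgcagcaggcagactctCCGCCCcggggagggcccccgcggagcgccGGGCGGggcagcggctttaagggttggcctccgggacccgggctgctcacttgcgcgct
RefSeq entries were matched for 9 of the 10 members by symbol, and Irs2 is named only. The letters GGGCGG were in the windows of Igf1r, Irs1 and Igfbp7, and 30.5% of 33469 rat promoters of this length hold them. The FoxO letters TGTTTAC were in the window of Insr alone among the members, beside 3.21% of all promoters. The STAT5 letters TTCNNNGAA were in the window of no member, beside 7.67% of all promoters. The TATA letters TATAAA were in the window of Igfbp4, beside 12.9% of all promoters. All letters were searched on both strands. Of the 4 printed windows that of Igf1 has the lowest share of G and C, 46.8%, beside 70.8% for Irs1, 71.6% for Igfbp3 and 74.4% for Igfbp7.

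Igf1, the ligand of the pathway, was highest in the thick ascending limb, the segment that takes up salt without water. It averaged 83.0 ± 33.0 CPM there (SD, n = 7 libraries), and the thick ascending limb was above each of the 12 other classes in every library. Fibroblasts came next with 30.5 ± 20.9 CPM and parietal epithelium, the outer layer of Bowman's capsule, with 29.1 ± 29.8 CPM, and these did not keep their order across libraries. Endothelium had 24.4 ± 13.9 CPM, proximal tubule 4.17 ± 1.81 CPM and podocytes, the filter cells, 3.60 ± 3.09 CPM. Of the Igf1 UMIs, the unnamed clusters held the largest share, 46.8%, with 44.2% of all UMIs. The thick ascending limb held 26.2% of the Igf1 UMIs with 5.05% of all UMIs. Within it Igf1 was not even. The cluster marked by Ppp1r1b, an inhibitor of protein phosphatase, had 114 ± 47.7 CPM, against 19.1 ± 15.3 CPM in the cluster marked by Cldn16, a tight junction protein, and 10.7 ± 9.23 CPM in the cluster marked by Nos1. Nos1 is known as a gene of the macula densa, the sensor patch beside the glomerulus. The Ppp1r1b cluster was the higher of each pair in 7 of 7 libraries.

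Markers of one class were also counted in nuclei of the others. The median marker of the thick ascending limb had 13.5% of its home level in fibroblasts, 8.58% in endothelium and 6.91% in parietal epithelium. Igf1 had 36.7% of its thick ascending limb level in fibroblasts, 29.3% in endothelium and 35.1% in parietal epithelium, above those medians. Single markers ranged from 4.74% to 74.0% in fibroblasts, 5.13% to 69.3% in endothelium and 4.36% to 44.2% in parietal epithelium. Igf1 thus lay within the range of the markers in each. Igf1 was at or below the median marker in 5 of 12 classes. In distal convoluted tubule it had 18.8% of its thick ascending limb level, below the 32.5% of the median marker. The others were principal cells (6.76% beside 7.28%), intercalated cells (9.36% beside 9.55%), connecting tubule (6.95% beside 8.05%) and mural cells (8.53% beside 8.64%). The level of Igf1 in these 5 classes is not read as expression.

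**Figure D1:**
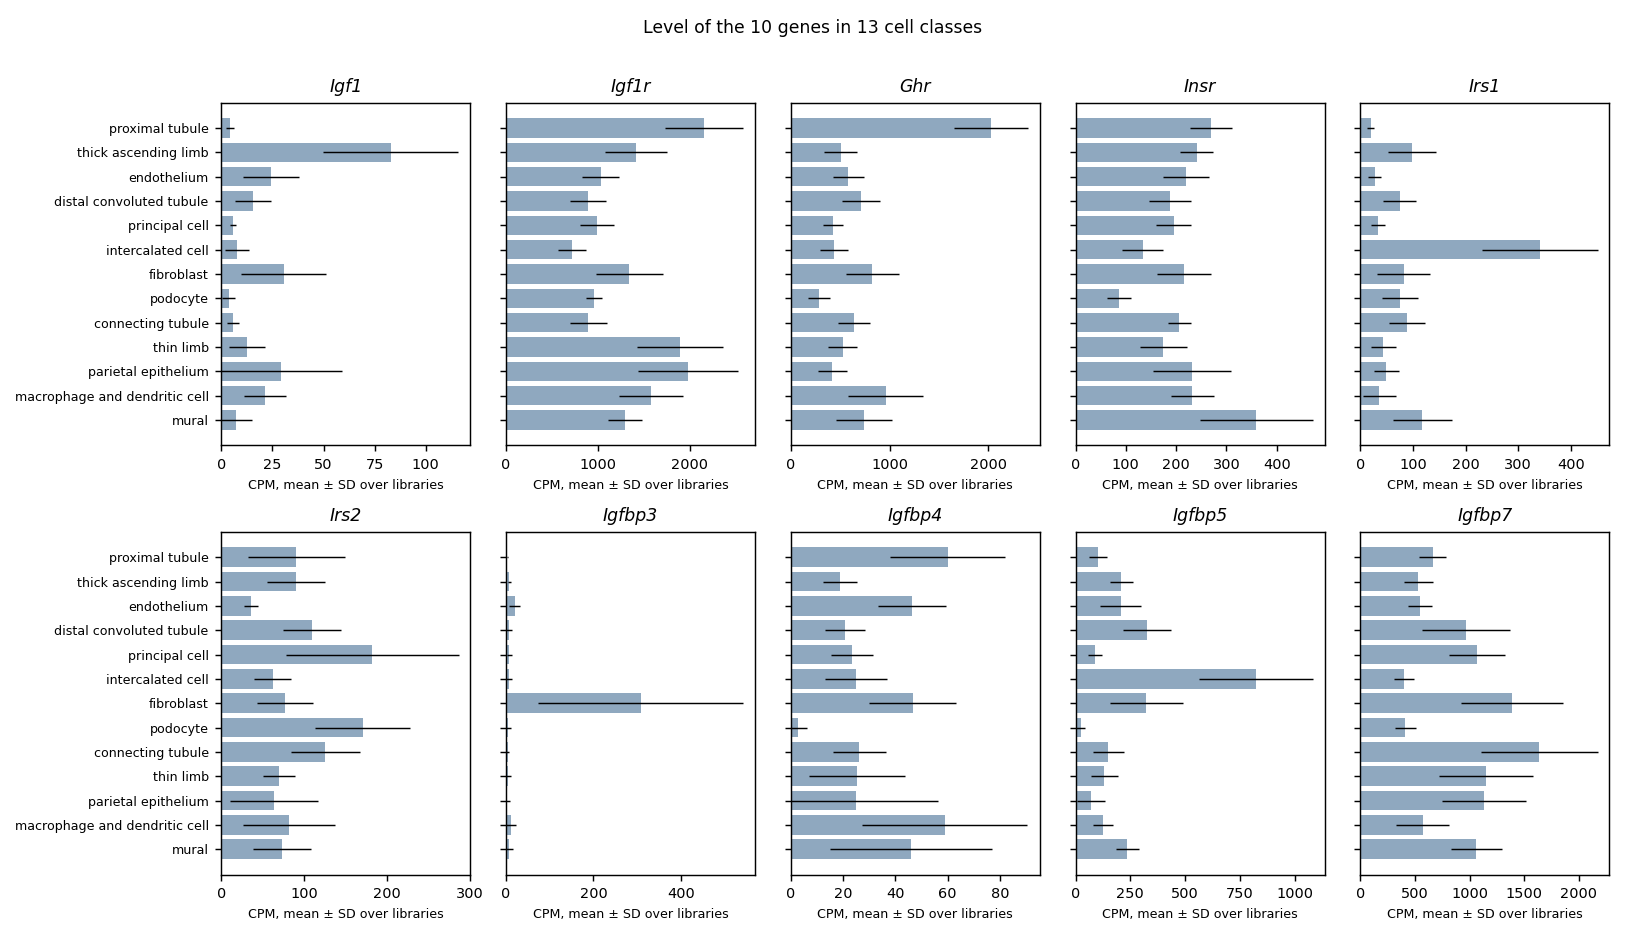
Level of each of the 10 genes in 13 cell classes, in CPM on a linear axis of its own for each gene. Bars are means and lines the SD over the libraries with at least 20 nuclei of the class. Igf1 is highest in the thick ascending limb, Ghr in the proximal tubule, Irs1 and Igfbp5 in intercalated cells and Igfbp3 in fibroblasts.

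Ghr, the growth hormone receptor gene, was highest in the proximal tubule, with 2026 ± 376 CPM, above the 12 other classes in every library. Macrophages and dendritic cells were next with 961 ± 377 CPM, and podocytes were lowest with 288 ± 114 CPM. Proximal tubule markers were also counted widely outside their class. The median of 13 proximal tubule markers had 97.4% of its home level in macrophages, 71.5% in endothelium, 57.4% in fibroblasts and 29.8% in the thick ascending limb. Ghr had 47.4%, 28.8%, 40.7% and 24.9% of its proximal tubule level in those 4 classes. It was at or below the median marker in 10 of 12 classes, and in distal convoluted tubule and podocytes it was above it by little, 35.1% beside 31.2% and 14.2% beside 12.97%. The level of Ghr in the 10 classes at or below that median is not read as expression. Within the proximal tubule, the cluster marked by Slc7a13, a transporter of the straight S3 segment, had 2597 ± 638 CPM of Ghr, against 1165 ± 431 CPM in the cluster marked by Slc5a12, a lactate transporter of the convoluted part. That is a 2.23-fold difference, seen in 7 of 7 libraries.

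Igf1r, the receptor for IGF1, had UMIs in every class. Its mean lay between 722 ± 151 CPM in intercalated cells and 2157 ± 428 CPM in the proximal tubule, a 2.99-fold range over 13 classes. Proximal tubule was above parietal epithelium (1981 ± 542 CPM) in 6 of 7 libraries and above 10 of the 12 other classes in every library. Thin limb (1894 CPM), macrophages and dendritic cells (1582 CPM), thick ascending limb (1418 CPM) and fibroblasts (1345 CPM) followed, and the order of these neighbours changed between libraries. In the other 12 classes Igf1r had 33.4% to 91.8% of its proximal tubule level, above the median proximal tubule marker in 8 of 12. Endothelium (47.8% beside 71.5%), connecting tubule (41.4% beside 50.6%), macrophages (73.4% beside 97.4%) and intercalated cells (33.4% beside 38.0%) were below that median, and the level of Igf1r in these 4 classes is not read as expression.

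Insr, the insulin receptor gene, reached its highest mean, 359 ± 112 CPM (n = 6), in mural cells, the smooth muscle and pericytes of vessels. Mural cells held only 115 Insr UMIs, 3 of them in 1-kidney replicate 1, which had too few nuclei to enter that mean. They were above the proximal tubule (269 ± 42.2 CPM) in 4 of 6 libraries. Podocytes were lowest with 86.8 ± 24.3 CPM, below intercalated cells (133 ± 41.1 CPM) in 6 of 7 libraries. Between these ends, 9 classes lay from 175 to 241 CPM, in an order that changed from library to library.

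The 2 adaptors were highest in different cells. Irs1 was highest in intercalated cells, which secrete acid or base, with 341 ± 109 CPM, above all 12 other classes in every library. Mural cells had 118 ± 56.0 CPM, thick ascending limb 98.3 ± 46.3 CPM, fibroblasts 82.8 ± 50.3 CPM and proximal tubule, the lowest, 19.5 ± 6.6 CPM. Irs2 had its highest mean in principal cells, the water and sodium cells of the collecting duct, with 182 ± 104 CPM. Podocytes had 170 ± 57.4 CPM of Irs2 and were above principal cells in 4 of 7 libraries, so the first place is not settled. Endothelium was lowest in Irs2 with 35.8 ± 8.5 CPM, below intercalated cells (62.2 CPM) in 6 of 7 libraries.

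The binding proteins were highest in different classes. Igfbp3, which codes for the main carrier of IGF1 in blood, was highest in fibroblasts, with 308 ± 235 CPM, 15.4-fold above endothelium (20.03 ± 12.6 CPM). Fibroblasts held 52.7% of its UMIs with 2.03% of all UMIs, and were above the 12 other classes in every library. In the other classes Igfbp3 had 0.869% to 6.49% of its fibroblast level, beside 1.17% to 4.84% for the median fibroblast marker. Igfbp5, which is known to bind matrix as well as IGF, was highest in intercalated cells with 825 ± 259 CPM, above the other 12 classes in every library. Distal convoluted tubule (326 ± 111 CPM) and fibroblasts (324 ± 165 CPM) followed and changed places between libraries. Podocytes had 22.8 ± 20.5 CPM. Irs1 and Igfbp5, each set against its intercalated cell level, were above the median intercalated cell marker in all 12 other classes (5.72% to 34.6% and 2.77% to 39.5%, beside 0.947% to 2.64%).

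Igfbp7, a secreted protein with low affinity for IGF, had its highest mean in connecting tubule with 1635 ± 535 CPM, above fibroblasts (1388 ± 463 CPM) in 5 of 7 libraries. It was lowest in intercalated cells with 402 ± 93.5 CPM and podocytes with 412 ± 97.5 CPM. Igfbp4 had 60.1 ± 21.99 CPM in the proximal tubule and 58.8 ± 31.6 CPM in macrophages, which were the lower in 4 of 7 libraries. Its 97.9% of the proximal tubule level in macrophages stands beside 97.4% for the median proximal tubule marker. Podocytes, with 2.95 ± 3.13 CPM, were below the thick ascending limb (18.9 CPM) in every library.

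Several members were uneven among the clusters of a class. In intercalated cells, the cluster marked by Slc26a4, the chloride and bicarbonate exchanger pendrin of type B cells, had 674 ± 285 CPM of Irs1, against 50.9 ± 27.6 CPM in the cluster marked by Slc4a1, the exchanger of type A cells. The same pair had 1598 ± 556 and 111 ± 58.7 CPM of Igfbp5. These are 13.2-fold and 14.4-fold differences, in 7 of 7 libraries each. The receptors had the other order in 7 of 7 libraries, with 488 against 933 CPM of Igf1r and 79.6 against 177 CPM of Insr in the Slc26a4 and Slc4a1 clusters. Slc34a1, a phosphate transporter and proximal tubule marker, had the same order, with 5329 CPM in the Slc26a4 cluster against 12327 CPM in the Slc4a1 cluster, and its part in the receptor values was not tested.

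Among the proximal tubule clusters, Irs2 was 2.83-fold higher in the Slc7a13 cluster (130 ± 130 CPM) than in the Slc5a12 cluster (46.1 ± 17.9 CPM), in 7 of 7 libraries. Single libraries had 46.8 to 415 CPM of Irs2 in the Slc7a13 cluster and 23.2 to 80.9 CPM in the Slc5a12 cluster, so the size of the fold is uncertain. Igfbp4, Irs1, Igfbp5, Igfbp7 and Insr were lower in the Slc7a13 cluster in 7 of 7 libraries, with 30.9 ± 5.42 against 109 ± 45.8 CPM for Igfbp4 and 13.4 ± 4.39 against 30.9 ± 11.3 CPM for Irs1. In the thick ascending limb, Irs1 averaged 120 CPM in the Ppp1r1b cluster and 32.2 CPM in the Nos1 cluster, while Igfbp5 averaged 192 and 431 CPM in the same clusters, each order in 7 of 7 libraries.

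**Figure D2:**
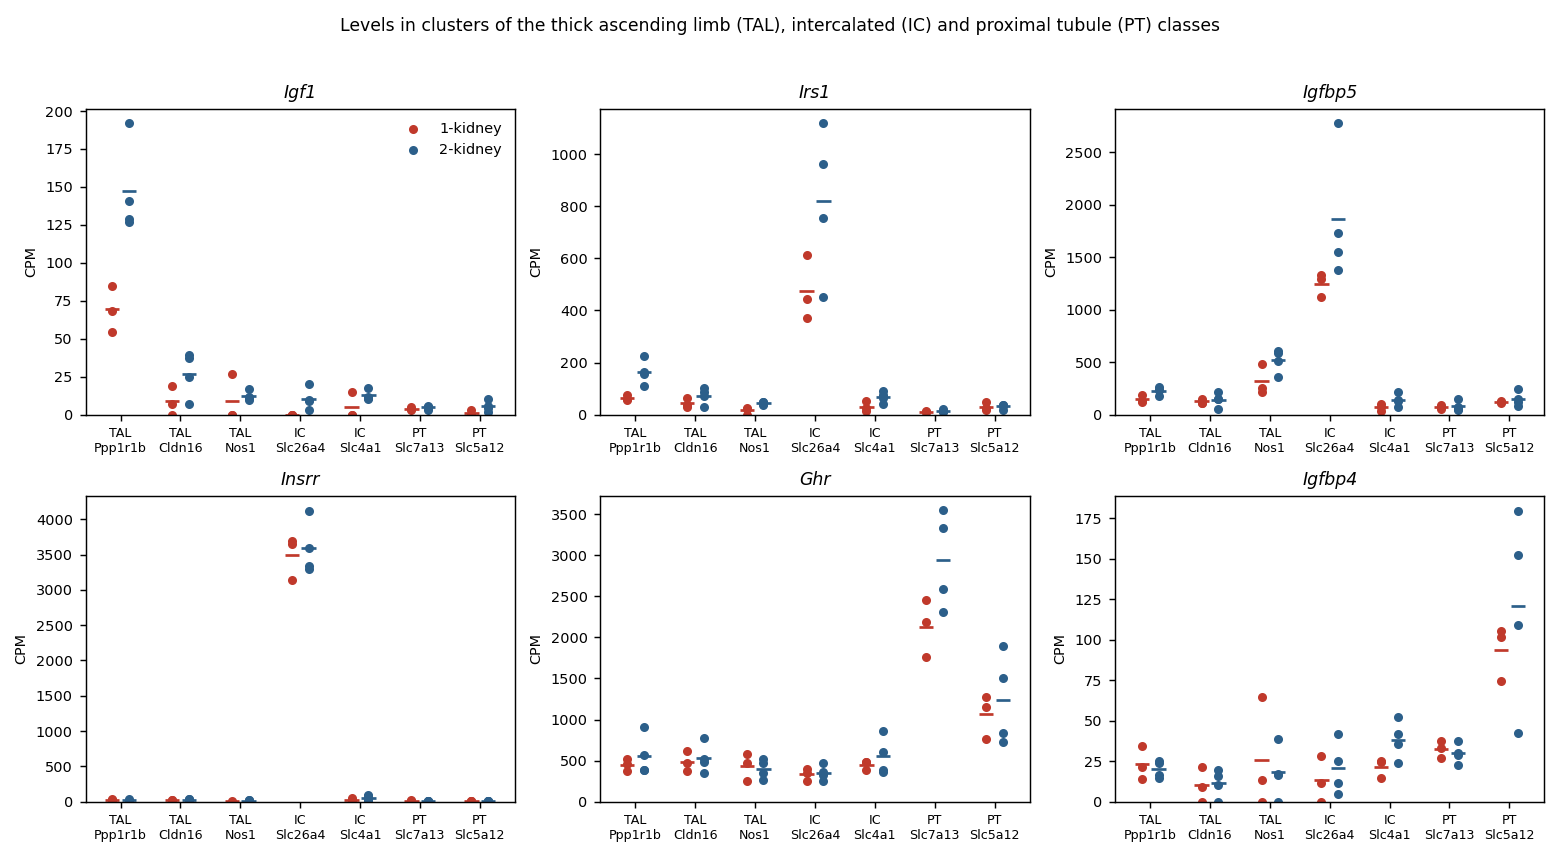
Level of 6 genes in clusters of the thick ascending limb (TAL), intercalated (IC) and proximal tubule (PT) classes, in CPM on linear axes. Points are libraries (3 1-kidney, 4 2-kidney) and lines are group means. Irs1, Igfbp5 and Insrr stand out in the Slc26a4 cluster, Igf1 in the Ppp1r1b cluster and Ghr in the Slc7a13 cluster.

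The genes whose levels over the 13 classes were most like a member's were named by Pearson correlation of log2(mean CPM + 10) among 7291 genes. Classes come from the same libraries and markers of one are counted in others, so these values only describe. For Igfbp3 they were Svep1 (r = 0.989) and C7 (0.971), both secreted proteins. For Igfbp4 they were Slc22a8 (0.986), an organic anion transporter of the proximal tubule, and Cyp2c23 (0.986), and for Ghr they were Megf11 (0.958) and Cyp4a2 (0.947). Irs1 was most like Fam13a (0.914) and LOC257650 (0.868), and Igfbp5 most like Terf2 (0.890) and Amer1 (0.866). For Igf1r they were Atxn2 (0.920) and Sdc2 (0.873), for Insr Fam135a (0.928) and Tmem131l (0.904), for Irs2 Peli2 (0.843) and Cux1 (0.822), and for Igfbp7 Map3k10 (0.836) and Arhgap44 (0.832). Igf1 was most like Cit (0.908) and Usp36 (0.893). The compared genes reach 20 CPM in their mean over the classes, and the mean of Igf1 itself is below that minimum.

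The series sets 1-kidney against 2-kidney animals. Over all nuclei, each of the 10 members had a lower fitted level in the 1-kidney libraries, and none passed the test. The median log2 fold of the 10, 1-kidney over 2-kidney, was −0.50, beside −0.011 over all 14928 genes tested. By edgeR, 0 of the 14928 genes (0%) passed an adjusted p of 0.05. The smallest adjusted p was 0.151, and 3084 genes had an unadjusted p under 0.05. DESeq2 called 506 of 21143 genes and 3 members. At an unadjusted p under 0.05, 5 of 10 members were lower, beside 10.7% of all genes. Likewise 5 members, Igf1, Irs1, Insr, Igfbp5 and Igfbp7, had groups that did not overlap, beside 10.7% of all genes in that direction.

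Igf1 had 9.16, 6.77 and 13.1 CPM in the 1-kidney libraries, against 22.3, 24.2, 18.5 and 23.9 CPM in the 2-kidney libraries. Every 1-kidney value was below every 2-kidney value. The log2 fold was −1.17 ± 0.23 (SE, adjusted p 0.165), and −1.23 within set P1117. With every library given the same class shares, the log2 ratio of the group means was −1.17, beside −1.20 as measured. Irs1 had 29.6, 41.9 and 40.5 CPM in 1-kidney libraries, against 56.5, 47.6, 74.6 and 74.3 CPM in 2-kidney libraries (log2 fold −0.73 ± 0.20, adjusted p 0.178). Igfbp7 had 477, 608 and 596 CPM in 1-kidney libraries, against 832, 663, 875 and 921 CPM in 2-kidney libraries (log2 fold −0.53 ± 0.16, adjusted p 0.182).

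Igfbp3 overlapped between the groups, with 4.31, 9.36 and 8.42 CPM in 1-kidney libraries and 48.0, 8.83, 12.6 and 14.7 CPM in 2-kidney libraries. One library, 2-kidney replicate 1, lies far above the other 3 of its group. Over all nuclei, fewer nuclei of a class and less RNA per nucleus cannot be told apart, and for Igfbp3 equal class shares took the log2 ratio of the group means to −1.17, against −1.51 as measured. No receptor gene passed over all nuclei. Ghr was at −0.34 ± 0.24, Insr at −0.28 ± 0.16 and Igf1r at −0.19 ± 0.25. Within set P1117, Ghr was at 0.062 and Igf1r at 0.17, the other direction.

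Within classes, 88 of the 110 pairs of a member and a class had enough UMIs to be tested, 78 of them with a log2 fold below 0 and 10 above. A total of 3 pairs passed the adjusted p of 0.05, and all 3 were in fibroblasts. At an unadjusted p under 0.05, 25 of the 88 pairs were lower in 1-kidney libraries and none was higher, beside 7.24% of all pairs of a gene and a class in the lower direction. Igfbp7 was below 0 in 11 of 11 classes (−0.96 to −0.34) and Irs2 in 10 of 10 (−1.26 to −0.12). Igf1 was tested in 4 classes and was below 0 in each (−1.50 to −0.68). In endothelium it had 6, 1 and 9 UMIs in 1-kidney libraries and 34, 13, 40 and 23 in 2-kidney libraries. There, in fibroblasts and in proximal tubule, Igf1 had enough UMIs to be tested through the 2-kidney libraries. Irs1 in fibroblasts and in endothelium was admitted in the same way. Pairs admitted in that way favour a fold below 0 in advance, so these counts of directions only describe. The classes come from the same 7 libraries, so they are not separate repeats.

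**Figure D3:**
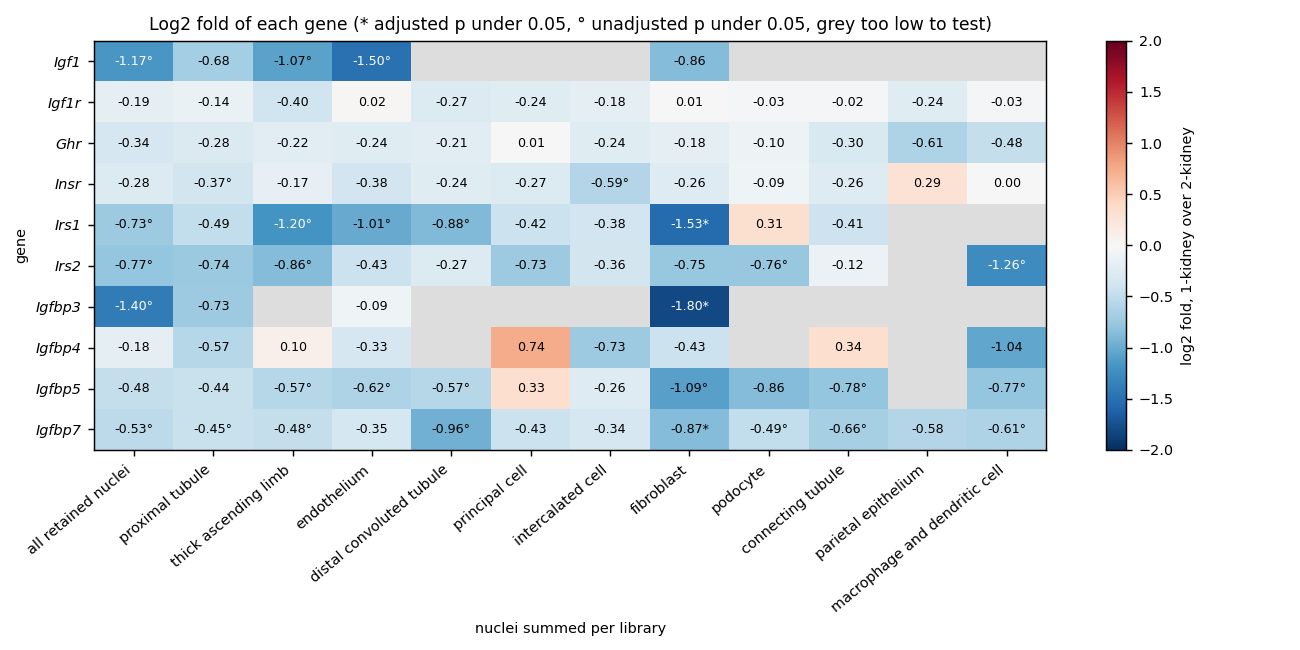
Log2 fold of each gene, 1-kidney over 2-kidney libraries, in all retained nuclei and in 11 classes. Blue is lower and red higher in 1-kidney libraries, numbers are the fold, and grey marks pairs too low to test. The 3 stars are Irs1, Igfbp3 and Igfbp7 in fibroblasts.

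In fibroblasts, the matrix-making cells between the tubules, Igfbp3, Irs1 and Igfbp7 were lower in 1-kidney animals. The class had 54, 192 and 131 nuclei in 1-kidney libraries and 234, 119, 244 and 265 nuclei in 2-kidney libraries. Of 6692 genes tested, 124 (1.85%) passed, 94 of them lower (1.4%) and 30 higher.

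Igfbp3 had 113, 118 and 146 CPM in 1-kidney libraries, against 786, 318, 342 and 336 CPM in 2-kidney libraries. The groups did not overlap, as was so for 10.1% of all genes in this direction, and 2-kidney replicate 1 again lay far above its group. The means were 126 ± 18.1 CPM in 1-kidney and 445 ± 227 CPM in 2-kidney libraries, from 84 UMIs in 1-kidney and 922 UMIs in 2-kidney libraries. The log2 fold was −1.80 ± 0.33 (adjusted p 0.0109). Without 2-kidney replicate 1 it was −1.36 ± 0.24 (adjusted p 0.00578), and within set P1117 it was −2.16 ± 0.33 (adjusted p 0.00370). The call was lost without 1-kidney replicate 1 (adjusted p 0.0835) or replicate 2 (0.1502) and held in the 12 other alternative fits.

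Irs1 had 22.5, 40.3 and 48.8 CPM in 1-kidney fibroblasts, against 115, 72.7, 161 and 119 CPM in 2-kidney fibroblasts, again without overlap. The 1-kidney values rest on 27 UMIs and the 2-kidney values on 224. In 1-kidney replicate 1, with 2 UMIs, Irs1 was below the level needed for testing. It entered the test through the 2-kidney libraries, which favours a fold below 0 in advance. The log2 fold was −1.53 ± 0.34 (adjusted p 0.0273). It was called in 7 of 14 alternative fits. Among those that lost the call were set P1117 alone (−1.29, adjusted p 0.0599) and the fits without 1-kidney replicate 1 (0.108), 2 (0.191) or 3 (0.0503).

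Igfbp7 had 1036, 831 and 927 CPM in 1-kidney fibroblasts, against 2058, 1655, 1492 and 1719 CPM in 2-kidney fibroblasts, without overlap. The log2 fold was −0.87 ± 0.22 (adjusted p 0.0464), and −1.01 within set P1117 (adjusted p 0.00933). It too was called in 7 of 14 alternative fits, and was lost without any 1 of the 3 1-kidney libraries (adjusted p 0.111 to 0.223) and without 2-kidney replicate 1 (0.0548) or 2 (0.0671). Igfbp5, with 191, 105 and 303 CPM in 1-kidney and 633, 359, 342 and 332 CPM in 2-kidney fibroblasts, had a log2 fold of −1.09 ± 0.33 that did not pass (adjusted p 0.0861). The receptor genes had overlapping groups in fibroblasts, with Igf1r at 0.010 ± 0.27, Ghr at −0.18 ± 0.27 and Insr at −0.26 ± 0.26.

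Markers moved in the same class. The sum of the fibroblast markers was 1103 to 1284 CPM in 1-kidney fibroblasts, against 2021 to 2473 CPM in 2-kidney fibroblasts, without overlap. All 5 tested markers were below 0, Dcn (−1.45 ± 0.34, adjusted p 0.0343) and Fbln5 (−0.96 ± 0.21, adjusted p 0.0283) passed, and Lum was at 0 in all 7 libraries. The sum of the proximal tubule markers was 25458 to 34504 CPM in 1-kidney fibroblasts, against 11052 to 20830 CPM in 2-kidney fibroblasts. Mural markers summed to 406 to 688 CPM in 1-kidney and 693 to 1200 CPM in 2-kidney fibroblasts. Counted per 1000 UMIs of the fibroblast markers, Igfbp3 was at 106 ± 6.93 in 1-kidney and 190 ± 86.2 in 2-kidney libraries, without overlap, a log2 ratio of −0.84. On that scale Irs1 overlapped (31.1 ± 9.38 in 1-kidney and 51.6 ± 20.4 in 2-kidney libraries). Igfbp7 was at 793 ± 127 in 1-kidney and 746 ± 59.3 in 2-kidney libraries, a log2 ratio of 0.087. Igfbp5 overlapped (167 ± 72.9 in 1-kidney and 179 ± 53.2 in 2-kidney libraries), with a log2 ratio of −0.10. Igf1r was higher on that scale in every 1-kidney library (1119 ± 267 in 1-kidney and 598 ± 231 in 2-kidney libraries). The divisor was lower in 1-kidney libraries, so a gene with unchanged CPM rises on that scale. The part of the proximal tubule markers and of fewer fibroblast-marker UMIs in the 3 calls was not tested.

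**Figure D4:**
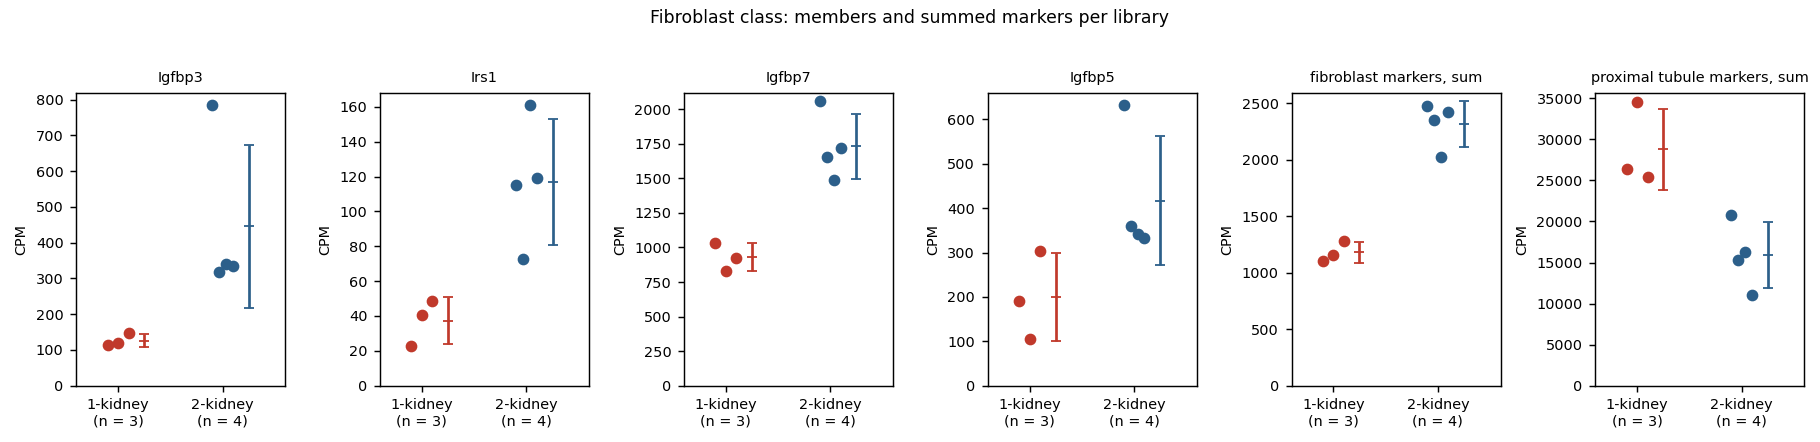
CPM of 4 genes and of the summed fibroblast and proximal tubule markers in the fibroblast class. Points are libraries (1-kidney left, 2-kidney right), bars the mean ± SD, and axes are linear from 0. In the first 5 panels every 1-kidney library is below every 2-kidney library, and in the proximal tubule panel every 1-kidney library is above.

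In the thick ascending limb, where Igf1 is highest, Igf1 and Irs1 were lower in every 1-kidney library than in any 2-kidney library, and neither passed the test. By edgeR, 0 of 8163 genes (0%) passed there, the smallest adjusted p was 0.0533, and 1152 genes had an unadjusted p under 0.05. Igf1 had 47.7, 34.1 and 68.1 CPM in 1-kidney libraries, against 102, 99.3, 118 and 112 CPM in 2-kidney libraries. The means were 49.97 ± 17.1 CPM in 1-kidney and 108 ± 8.81 CPM in 2-kidney libraries, and the log2 fold −1.07 ± 0.24 (adjusted p 0.104). Irs1 had 47.7, 52.1 and 65.2 CPM in 1-kidney libraries, against 141, 89.2, 163 and 130 CPM in 2-kidney libraries, a log2 fold of −1.20 ± 0.24 (adjusted p 0.0734). Irs2, with 71.5, 41.3 and 72.4 CPM in 1-kidney and 85.3, 152, 105 and 104 CPM in 2-kidney libraries, had a fold of −0.86 ± 0.26 (adjusted p 0.206), and Igfbp5 one of −0.57 ± 0.18 (adjusted p 0.215).

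Of the 9 members tested in the thick ascending limb, 4 had groups that did not overlap and were lower, beside 6.92% of all genes. Adjusted p of Igf1 and Irs1 passed by DESeq2 (0.0195 and 0.00677), where 59 of 17259 genes passed. They also passed without 2-kidney replicate 1 (0.0435 and 0.0357), where 75 of 8696 genes did. Within set P1117, Igf1 was at −0.98 (adjusted p 0.195) and Irs1 at −0.99 (0.147). In the Ppp1r1b cluster alone, Igf1 had 68.5, 54.5 and 84.7 CPM in 1-kidney libraries, against 129, 127, 192 and 140.5 CPM in 2-kidney libraries (−1.06 ± 0.24, adjusted p 0.0995). That cluster made up 71.6% ± 7.50 of the class in 1-kidney and 73.9% ± 6.21 in 2-kidney libraries. Proximal tubule markers summed to 10821 to 15380 CPM in this class in 1-kidney libraries and 5027 to 12312 CPM in 2-kidney libraries, and the class's own markers to 17442 to 20175 CPM in 1-kidney and 19304 to 22341 CPM in 2-kidney libraries, and the part of the markers was not tested. Per 1000 UMIs of its own markers, Igf1 (2.67 ± 0.905 in 1-kidney against 5.14 ± 0.702 in 2-kidney libraries) and Irs1 (2.96 ± 0.584 in 1-kidney against 6.24 ± 1.62 in 2-kidney libraries) were still without overlap, with log2 ratios of −0.94 and −1.08. On that scale Irs2 (3.28 ± 0.811 in 1-kidney and 5.29 ± 1.21 in 2-kidney libraries, −0.69) and Igfbp5 (8.67 ± 0.968 in 1-kidney and 11.6 ± 1.61 in 2-kidney libraries, −0.42) overlapped.

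In distal convoluted tubule, the thiazide-sensitive segment, Igfbp7 had 535, 744 and 597 CPM in 1-kidney libraries, against 1450, 747, 1448 and 1253 CPM in 2-kidney libraries. The groups did not overlap, though replicate 2 of each nearly met, and 6.65% of all genes were without overlap in this direction. The log2 fold was −0.96 ± 0.23 and did not pass (adjusted p 0.109). It passed by DESeq2 (0.00526), where 38 of 16353 genes passed, and without 2-kidney replicate 1 (0.0463), where 159 of 6800 genes did. Within set P1117 the fold was −0.81 (adjusted p 0.269). Proximal tubule markers summed to 11587 to 15800 CPM in this class in 1-kidney libraries and 5991 to 12199 CPM in 2-kidney libraries, and their part in these values was not tested. Irs1 had 46.1, 56.1 and 50.8 CPM in 1-kidney libraries, against 80.9, 57.2, 132 and 100.5 CPM in 2-kidney libraries (−0.88 ± 0.29, adjusted p 0.190). In this class 6 of 6948 genes (0.0864%) passed, all higher.

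**Figure D5:**
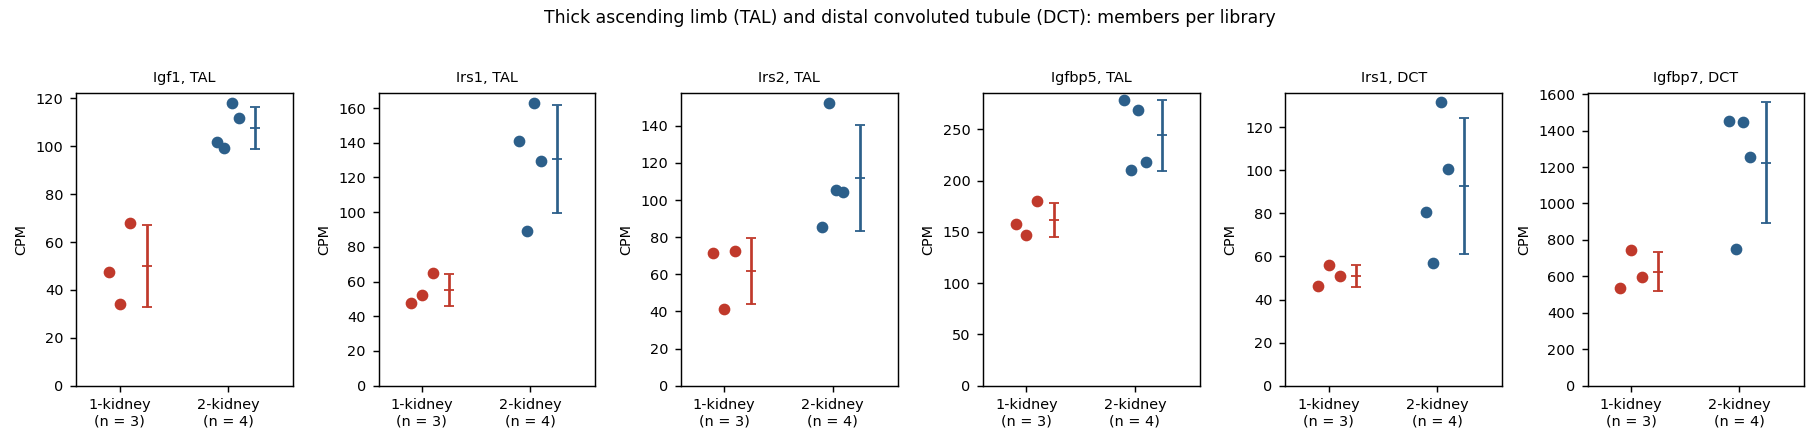
CPM of Igf1, Irs1, Irs2 and Igfbp5 in the thick ascending limb (TAL) and of Irs1 and Igfbp7 in the distal convoluted tubule (DCT). Points are libraries (1-kidney left, 2-kidney right), bars the mean ± SD, and axes are linear from 0. The groups do not overlap in any of the 6 panels, and no fold passed an adjusted p of 0.05.

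In the proximal tubule, where Ghr and Igf1r are highest, no receptor gene passed the test. By edgeR 0 of 11120 genes (0%) passed, with 1852 at an unadjusted p under 0.05. Ghr had 1940, 1580 and 1928 CPM in 1-kidney libraries, against 1806, 1952, 2214 and 2764 CPM in 2-kidney libraries (−0.28 ± 0.20, adjusted p 0.457). Igf1r was at −0.14 ± 0.23. Insr had 234, 239 and 227 CPM in 1-kidney libraries, against 274, 258, 329 and 324 CPM in 2-kidney libraries, without overlap (−0.37 ± 0.15, adjusted p 0.273), as was so for 6.7% of all genes in this direction. The Slc7a13 cluster, which has the more Ghr, made up 78.0% ± 1.38 of the class in 1-kidney and 57.5% ± 12.1 in 2-kidney libraries. Within that cluster Ghr was at −0.48 ± 0.22 (adjusted p 0.347), and in the Slc5a12 cluster at −0.20 ± 0.30, with 0% of genes called in both.

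In the other classes no member passed, beside 0.0849% of genes called in endothelium, 0.0489% in podocytes, 0.115% in connecting tubule, 0.0927% in parietal epithelium and 0% in intercalated cells, principal cells and macrophages. Endothelial Igf1 was at −1.50 ± 0.52 (adjusted p 0.231) from 16 UMIs in 1-kidney and 110 in 2-kidney libraries. With 1 library left out it ranged between −1.99 (without 1-kidney replicate 1) and −0.78 (without 1-kidney replicate 2). Endothelial Irs1 was at −1.01 ± 0.34 (adjusted p 0.222). Podocyte Irs2 had 157, 134 and 87.1 CPM in 1-kidney libraries, against 187, 158, 272 and 197 CPM in 2-kidney libraries (−0.76 ± 0.24, adjusted p 0.342). Connecting tubule Igfbp7 was at −0.66 ± 0.22 (adjusted p 0.209) and intercalated Insr at −0.59 ± 0.23 (0.368). In the Slc26a4 cluster of intercalated cells, Irs1 had 371, 444 and 615 CPM in 1-kidney libraries, against 452, 754, 963 and 1119 CPM in 2-kidney libraries, an overlap (−0.74 ± 0.27, adjusted p 0.256, with 0.0603% of genes called). That cluster made up 49.5% ± 7.11 of the class in 1-kidney and 39.0% ± 3.85 in 2-kidney libraries, and in the whole class Irs1 was at −0.38 ± 0.25 and Igfbp5 at −0.26 ± 0.25. Principal cells had folds above 0 for Igfbp4 (0.74 ± 0.37, adjusted p 0.333) and Igfbp5 (0.33 ± 0.32, adjusted p 0.612). Igfbp4 had 29.3, 27.8 and 33.5 CPM in 1-kidney principal cells, against 26.1, 19.8, 15.3 and 12.01 CPM in 2-kidney principal cells, without overlap, as was so for 8.58% of all genes in the higher direction. Its level in principal cells was 39.0% of its proximal tubule level, beside 37.4% for the median proximal tubule marker. The part of proximal tubule RNA in this difference was not tested. Parietal epithelium had no Igf1 UMI in the 3 1-kidney libraries and 21 in the 2-kidney libraries, too few for the test. The limit of 3 counts that a count of 0 allows over the 1-kidney group stands for 17.3 CPM of Igf1. That is 3.12-fold below the 54.1 CPM counted over the 2-kidney libraries. Counting error of the 21 UMIs and the spread between libraries are not in this value.

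Whether the 1-kidney effect differs among the classes was tested in a model of all 11 classes with the library as a block. By edgeR 35 of 10623 genes (0.329%) passed and no member did. Irs1 came nearest (adjusted p 0.108), and the other 9 members had adjusted p from 0.518 to 0.947. Between thick ascending limb and proximal tubule, 2 of 10801 genes (0.0185%) passed and no member did. Irs1 differed by −0.77 ± 0.24 on the log2 scale (adjusted p 0.248). The calls in fibroblasts are therefore not shown to be particular to fibroblasts.

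Other genes of the pathway were read from 5 lists of 86 genes in all. Over all nuclei no list gene passed by edgeR. Of the growth hormone and STAT5 list, 8 of 10 genes were tested and 6 were below 0 (median −0.093). Of 16 tested receptor adaptors and inhibitors 9 were below 0 (median −0.054), and of 26 tested genes of the PI3K, AKT and mTOR arm 17 were (median −0.071). Of 9 tested ligands, other receptors and binding proteins 5 were above 0 (median 0.12). Of 18 FoxO factors and FoxO-induced genes, 13 were above 0 (median 0.19). The median over all genes tested was −0.011.

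Within classes, Pdk4 was the only list gene that passed, and it passed in distal convoluted tubule and in the Ppp1r1b cluster of the thick ascending limb. Pdk4 codes for a kinase that holds glucose out of the citric acid cycle and is a known FoxO target. In distal convoluted tubule it had 83.0, 58.2 and 95.2 CPM in 1-kidney libraries, against 39.0, 9.86, 9.33 and 20.9 CPM in 2-kidney libraries. The log2 fold was 2.12 ± 0.38 (adjusted p 0.0479), and the part of proximal tubule RNA in these values was not tested. In the Ppp1r1b cluster it had 94.1, 75.7 and 76.8 CPM in 1-kidney libraries, against 22.7, 14.7, 15.9 and 37.1 CPM in 2-kidney libraries (1.78 ± 0.32, adjusted p 0.0295), where 7 of 7382 genes passed (0.0948%). In both, Pdk4 had enough UMIs to be tested through the 1-kidney libraries, which favours a fold above 0 in advance. The call held in 5 of 13 alternative fits in distal convoluted tubule (adjusted p at most 0.265, 0.142 within set P1117) and in 7 of 11 in the Ppp1r1b cluster, and in both it was lost without any 1 of the 1-kidney libraries or without 2-kidney replicate 3. In distal convoluted tubule it was also lost without 2-kidney replicate 2 (0.0599) or 4 (0.0514). Over all nuclei it was at 1.81 ± 0.32 (adjusted p 0.151). Txnip, an arrestin-like protein that curbs glucose uptake, had 705 ± 56.2 CPM in 1-kidney and 377 ± 128 CPM in 2-kidney thick ascending limb (0.91 ± 0.23, adjusted p 0.151). Pik3r3, a PI3 kinase subunit, was at −0.79 ± 0.21 in distal convoluted tubule (adjusted p 0.134).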

How the data were processed

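The deposited matrices hold raw UMI counts for each gene in each barcode, made by the authors with Cell Ranger 7.0 per the submitters' processing notes. Their genome build: not given in the sources used here. Per the labels' protocols, nuclei were captured with 10x 3' chemistry v3.1, and the libraries were pooled and sequenced on more than 1 occasion. A barcode was kept if it had 200 or more genes and no more than 5% mitochondrial UMIs. The automatic doublet threshold of Scrublet (scanpy 1.11.5) marked at most 3 barcodes a library and had not worked, so the highest scores were removed up to the expected 0.8% per 1000 barcodes (60 to 404 a library). From 2000 variable genes without members and list genes, 30 components and 20 neighbours, Leiden clustering (leidenalg 0.10.2, resolution 1) gave 24 clusters. A cluster could be named where at least 3 markers of a type were at least 2-fold and a leading one 4-fold above the other clusters. It still stayed unnamed where haemoglobin or ribosomal transcripts led it or where its leading genes favoured another type. The same held for a cluster with many UMIs per nucleus and more markers of another type, or with few UMIs and no marker among its leading genes. Some of the 4 unnamed clusters met the marker counts and were left unnamed by these further rules. UMIs were summed per library and class, and 11 classes with 20 or more nuclei in each of the 7 libraries were tested.

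edgeR 4.0.16 (R 4.3.3; TMM, filterByExpr, quasi-likelihood test) was fitted on all genes of each class with the group as its only term and Benjamini-Hochberg adjustment; a call is an adjusted p under 0.05. All p-values are two-sided. Scripts were tested on simulated data. DESeq2 1.42.0 and the other alternatives are given in the closing section. All 10 members are named, and of each list at most the 3 genes with the smallest p. The members and lists were chosen with earlier results of these data known. The fits within single clusters and the values per marker UMI were added after seeing the data. The test of a difference among classes was 1 edgeR model of the 11 classes with the library and the class as terms. The counts do not show on which strand or copy a read lay, and intervals and limits cover counting error only.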

Additional observations from a re-analysis of the deposited data

Results flagged for a closer look

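Of 98 groups of 4 2-kidney libraries examined for a value far from the other 3, 8 were picked out, where chance gives about 1 in 20. In 7 of the 8 the library was 2-kidney replicate 1. Its Igfbp3 was high, with 48.0 CPM in all nuclei (8.83 to 14.7 CPM in the other 3), 6.72 CPM in the proximal tubule (2.76 to 3.41) and 786 CPM in fibroblasts (318 to 342). Its Igfbp5 was high in the same way, with 190.2 CPM in the proximal tubule (79.8 to 93.5) and 633 CPM in fibroblasts (332 to 359). Its Igfbp4 was low, with 29.5 CPM in the proximal tubule (77.7 to 85.1) and 34.6 CPM in endothelium (55.1 to 58.8). In 2-kidney replicate 4, Igfbp4 in intercalated cells was 48.6 CPM (24.0 to 26.0). The cause was not tested.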

How the results depend on the processing

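The number of members called over all nuclei was 0, and 3 by DESeq2. The number of pairs of a member and a class called was 3, and 7 by DESeq2, 9 without a filter on low counts, 1 with predicted doublets kept, 1 with list genes allowed in the clustering, and 0 to 5 when 1 library was left out (0 without 1-kidney replicate 1 or 2, 5 without 2-kidney replicate 1). These settings also changed how many of all genes were called. Per class it was 0 to 124 in the main fits and 0 to 202 by DESeq2. Without the filter it was 7 (parietal epithelium) to 341 (principal cells), and without 2-kidney replicate 1 it was 0 to 203. The number of members whose effect differed among classes was 0, and 2 without a filter on low counts and 0 to 1 when 1 library was left out. Over all nuclei Igf1r turned to 0.17 and Ghr to 0.062 without set P1117B, and to 0.17 and 0.064 with the set as a term. Igfbp7 in the thick ascending limb turned to 0.11 in the Nos1 cluster alone, Insr in intercalated cells to 0.21 in the Slc26a4 cluster alone, and Igfbp7 in fibroblasts to 0.087 per 1000 marker UMIs. The cause was not tested. Genes called in fibroblasts were 124, and 202 by DESeq2, 339 without the filter, 21 with doublets kept, and 1 to 203 when 1 library was left out. All 130 levels moved by less than 1 SD between library means and pooled CPM. With 1-kidney fibroblast sums of 84 Igfbp3 and 27 Irs1 UMIs, counting error limits those folds. No paired analysis was possible because the replicate numbers follow the accession order and pair no animals.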

Other observations

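The genes Insrr, Grb10 and Pappa2 were singled out after their values were seen. Insrr codes for a relative of the insulin receptor that is known to sense alkaline pH. It had 3549 ± 326 CPM in the Slc26a4 cluster of intercalated cells, against 43.1 ± 34.7 CPM in the Slc4a1 cluster, an 82.3-fold difference in 7 of 7 libraries, in the cluster that also has the most Irs1 and Igfbp5. Grb10, an adaptor that dampens insulin and IGF1 receptors, had 1079 ± 239 CPM in the Slc26a4 cluster and 617 ± 85.9 CPM in the Slc4a1 cluster. In the proximal tubule it had 26.0 ± 4.95 CPM in the Slc7a13 cluster and 171 ± 17.7 CPM in the Slc5a12 cluster. Pappa2, the protease that cuts IGF binding proteins, had 1414 ± 575 CPM in the Nos1 cluster of the thick ascending limb, against 18.5 ± 12.4 CPM in the Ppp1r1b cluster, a 76.5-fold difference in 7 of 7 libraries. The ligand itself was the other way round there, with 10.7 ± 9.23 CPM of Igf1 in the Nos1 cluster and 114 ± 47.7 CPM in the Ppp1r1b cluster.

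Other ligands of the receptors were scarce in these nuclei. Ins1, Ins2 and Gh1 had 0 UMIs in all 7 libraries, and Igf2 had 8. Of the binding proteins outside the 10, Igfbp1 was highest in intercalated cells (37.3 CPM) and Igfbp2 in podocytes (45.7 CPM), while Stc1, an inhibitor of PAPP-A proteases, was highest in principal cells (138 CPM). Prlr and Stat5b, the prolactin receptor and the STAT factor downstream of GHR, were highest in the proximal tubule (498 and 430 CPM), as Ghr was.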
